A study of Homo sapiens with 4 samples.

Results

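The human mitochondrial genome is a small circular DNA that encodes 2 ribosomal RNAs, 22 transfer RNAs and 13 proteins of the respiratory chain. Of these 37 genes, 24 were followed here, namely the 2 rRNA genes and the 22 tRNA genes, chosen by exact symbol among 33089 rows of a gene expression table. The 13 protein-coding transcripts were not analysed here, so coding levels could not be set beside the rRNA and tRNA levels. RNA of HT29, a long-established cell line from a human colorectal adenocarcinoma kept in serum-supplemented DMEM, was sequenced after 2 h with 100 µM fluorouracil (2 libraries) and without treatment (2 libraries). Fluorouracil, a pyrimidine analogue given in colorectal cancer, blocks thymidylate synthase through one metabolite and is built into RNA through another. The labels name no vehicle. They also leave unsaid whether both libraries of a group were grown separately, so the spread behind each p-value may be only technical.

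Each strand of mitochondrial DNA is transcribed into long precursors that cover many genes. The tRNAs lie between the rRNA and protein-coding genes, and their excision by RNase P at the 5′ end and by ELAC2 at the 3′ end releases the neighbouring RNAs. RNR1 and RNR2 encode the 12S and 16S rRNAs of the mitochondrial ribosome. Most genes are read from the heavy-strand promoters, while ND6 and 8 of the 22 tRNAs are encoded on the light strand.

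Levels were deposited as FPKM, fragments per kilobase of transcript and per 1e6 mapped fragments. In 3 libraries these values held whole counts. With the annotated gene lengths, all 19 rows above 0 were whole multiples of what 1 count is worth, within 0.01 counts, for a library total of 14157601 in fluorouracil replicate 1, 13934335 in untreated replicate 1 and 14691913 in untreated replicate 2. The same totals gave whole counts for 387 of 401 short nuclear RNA rows in fluorouracil replicate 1, and for 346 of 355 and 358 of 365 in untreated replicates 1 and 2. Each total is the smallest that makes the counts whole. No total was derived for fluorouracil replicate 2, in which only the 2 rRNA rows were above 0 and whose values carry a median of 6 significant digits, against 16 in the other libraries. Its FPKM sum was 764348, against 440023 in fluorouracil replicate 1 and 434045 and 426453 in untreated replicates 1 and 2. The sources used here do not say whether its values were made in the same way as the others, so a mean over the 2 fluorouracil libraries may join values of different kinds. Counts are therefore given for 3 libraries and FPKM for all 4. Intervals and floors cover counting error only.

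Fluorouracil replicate 2 stood apart from the other libraries in 3 ways that touch these rows. None of 202 nuclear rows shorter than 200 bases that reached 1 FPKM in all other libraries had a value above 0 in it, while all 6 rows of 200 to 349 bases with that level did. Of all 2320 rows shorter than 200 bases, 1 was above 0 in it. In addition, the cytosolic rRNA rows RNA18S5 and RNA28S5 had 298 and 413 FPKM in it and were listed at 0 in the other 3 libraries. Finally, the median log2 change from the untreated mean over 12462 tested rows was 0.19 in it and 0.0076 in fluorouracil replicate 1. Of 10 colon epithelial markers, 8 reached 1 FPKM in every library, with CDX1 and CDX2 below 1. Of markers of other cells, LYZ, CD14 and LUM reached 1 FPKM in every library, LYZ at 1624 and 1752.5 FPKM in fluorouracil and 1835 and 1694 FPKM in untreated cells, while CD3E, HBB, COL1A2, COL3A1, DCN and KDR were listed at 0 in all 4. The 10 MTRNR2L rows, nuclear copies of RNR2, reached at most 0.175 FPKM in any library. Whether reads of nuclear copies were counted in RNR2 was not tested.

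**Figure D1:**
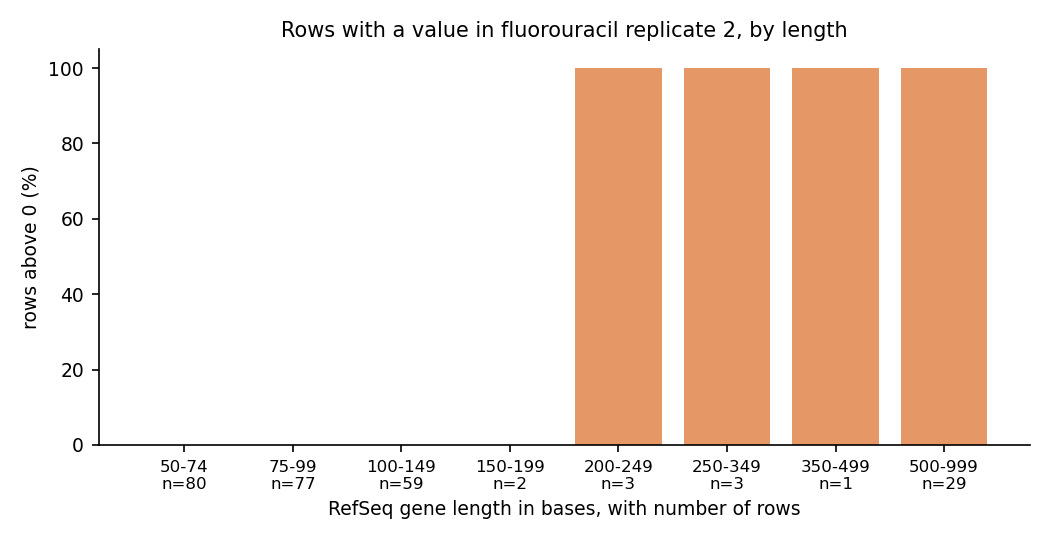
Share of rows with a value above 0 in fluorouracil replicate 2, by RefSeq gene length in bases (x axis, with the number of rows), among rows that reached 1 FPKM in the other 3 libraries. The share was 0% in the 4 classes shorter than 200 bases and 100% in the 4 longer classes.

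The tRNA sequences that the levels below turn on are the 4 rows with the highest level, all of the light strand, and 4 rows listed at 0 in every library. They are written 5′ to 3′ as DNA letters of the encoded tRNA from GENCODE 29 on GRCh38, with the anticodon in capitals, and without the CCA end that is added after transcription.
TRNS1: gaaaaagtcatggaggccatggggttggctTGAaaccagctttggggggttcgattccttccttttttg
TRNP: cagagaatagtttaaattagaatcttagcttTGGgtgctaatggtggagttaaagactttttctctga
TRNE: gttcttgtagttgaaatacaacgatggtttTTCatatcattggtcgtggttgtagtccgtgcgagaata
TRNY: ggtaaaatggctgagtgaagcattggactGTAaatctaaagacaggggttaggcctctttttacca
TRNC: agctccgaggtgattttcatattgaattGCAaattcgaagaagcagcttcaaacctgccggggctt
TRNN: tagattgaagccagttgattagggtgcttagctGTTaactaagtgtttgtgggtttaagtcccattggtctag
TRNF: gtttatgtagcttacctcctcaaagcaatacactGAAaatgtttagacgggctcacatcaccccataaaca
TRNV: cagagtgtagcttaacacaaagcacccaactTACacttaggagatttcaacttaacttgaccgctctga
In the order given they carry serine, proline, glutamate, tyrosine, cysteine, asparagine, phenylalanine and valine. TRNC and TRNY are neighbours that share 1 base, position 5826 of the mitochondrial genome, and lay at opposite ends of the range of levels.

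Both mitochondrial rRNAs had higher FPKM in the 2 fluorouracil libraries than in the 2 untreated ones, RNR1 by more than RNR2, and neither passed the test. As a share of the FPKM sum, however, the fluorouracil libraries lay on opposite sides of the untreated ones. The rRNA rows together held 3.33% and 1.86% in fluorouracil replicates 1 and 2, against 2.48% and 2.25% in untreated replicates 1 and 2. RNR1, the RNA of the small ribosomal subunit, lies at positions 648 to 1601 of the mitochondrial genome (GRCh38, plus strand). It measured 2118 and 2800.5 FPKM in fluorouracil replicates 1 and 2, against 1285 and 1177 FPKM in untreated replicates 1 and 2. The groups did not overlap, and the highest value was that of fluorouracil replicate 2. The group means were 2459 ± 483 FPKM in fluorouracil cells and 1231 ± 76.6 FPKM in untreated cells (SD, n = 2 each), a ratio of 2.00. Taken singly, fluorouracil replicate 1 was 1.72 times the untreated mean and replicate 2 was 2.28 times. On the log2(FPKM + 0.1) scale the change was 0.99 (SE 0.35). Its limma adjusted p was 0.671 over 12462 rows (Benjamini-Hochberg), and the unadjusted limma p, from a model fitted across all genes, was 0.0447.

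RNR2, the RNA of the large ribosomal subunit, lies at positions 1671 to 3229 on the same strand. It had the highest FPKM of all rows in every library, at 12549.6 and 11449 FPKM in fluorouracil replicates 1 and 2 and 9482 and 8424 FPKM in untreated replicates 1 and 2. The groups did not overlap here either. The means were 11999 ± 778 FPKM in fluorouracil cells and 8953 ± 748 FPKM in untreated cells (SD, n = 2 each), a ratio of 1.34. The log2 change was 0.42 (SE 0.36; limma adjusted p = 0.671). Over all tested rows, 24.4% had both fluorouracil values above both untreated values, the share against which the 2 of 2 rRNA rows are to be read, and 0% were called in the fit of all 4 libraries. FPKM is relative to the library, so more of an RNA per cell and less of the other RNA cannot be told apart. An exact permutation test of 2 libraries against 2 cannot give a two-sided p below 0.333.

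In fluorouracil replicate 1, where counts were available, RNR1 had 28601 counts and RNR2 276990, against 17083 and 205980 in untreated replicate 1 and 16493 and 192957 in untreated replicate 2. The rRNA rows together made up 2.16% of all counts in that fluorouracil library (Wilson 95% interval 2.15 to 2.17%), 1.60% (1.59 to 1.61%) in untreated replicate 1 and 1.43% (1.42 to 1.43%) in untreated replicate 2. The difference between the untreated libraries exceeded their counting error. The log2 changes of fluorouracil replicate 1 alone from the untreated mean were 0.78 for RNR1 and 0.49 for RNR2. A fit without fluorouracil replicate 2 called neither rRNA (limma adjusted p = 0.301 and 0.822, the smaller for RNR1); it called 0.144% of all rows.

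The size of the rRNA difference in fluorouracil replicate 2, and for RNR2 its direction, depended on how that library was scaled. As deposited, its log2 changes from the untreated mean were 1.19 for RNR1 and 0.36 for RNR2. When each library was divided by its FPKM sum without the 24 rows and short RNA rows, they were 0.30 and -0.53, and the median of all tested rows in that library was -0.68. The change over both fluorouracil libraries was then 0.54 for RNR1 and -0.023 for RNR2. After removal of each library's dependence on GC content and transcript length, fitted on protein-coding rows, the changes in that library were 0.34 and 0.08, and those in fluorouracil replicate 1 were 0.71 and 0.45. RNR1 was above the untreated mean in both fluorouracil libraries under each of these treatments of the values, while RNR2 was below it in fluorouracil replicate 2 after scaling to the sum. The part of the cytosolic rRNA reads of fluorouracil replicate 2 in these values was not tested.

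The ratio of RNR1 to RNR2 does not depend on a library's scaling. It was 0.169 and 0.245 in fluorouracil replicates 1 and 2 and 0.136 and 0.140 in untreated replicates 1 and 2, so both fluorouracil values lay above both untreated values. After the same removal, the fluorouracil ratios were 0.183 and 0.183 and the untreated ratios 0.149 and 0.157. Length and GC content differ between the 2 genes, which have 954 and 1559 bases and 45.5% and 42.8% GC.

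**Figure D2:**
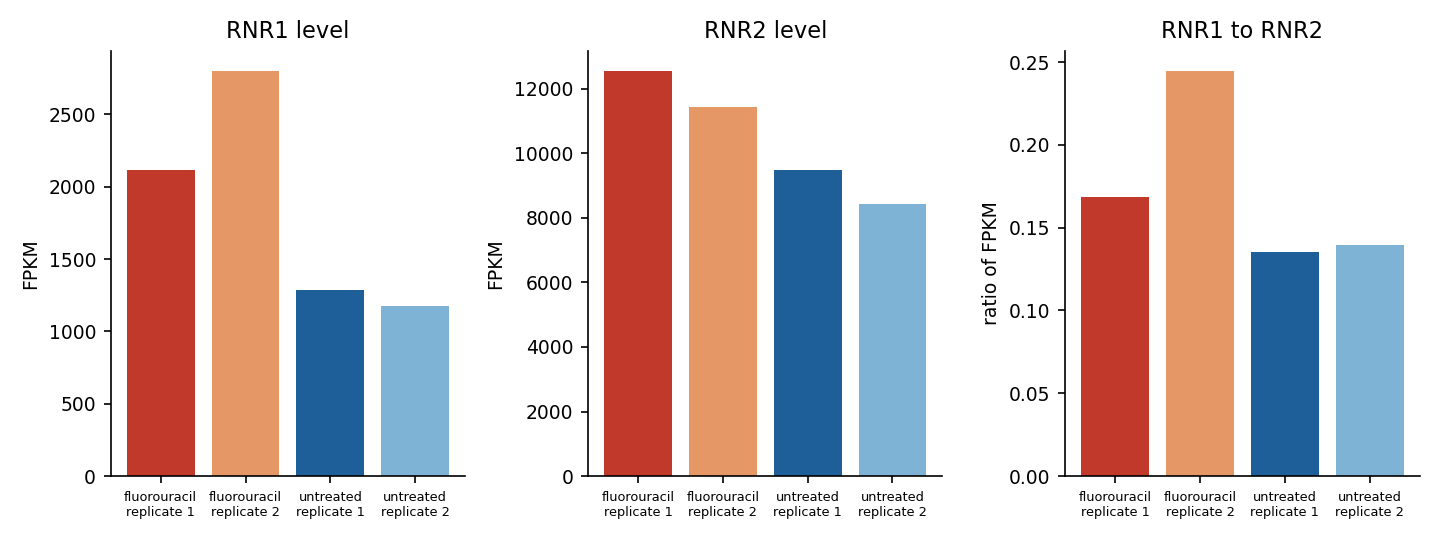
FPKM of the mitochondrial rRNA rows RNR1 and RNR2 and the ratio of the 2 (y axes, from 0) in each library, 1 bar per library. RNR1 lies at 2118 and 2800.5 FPKM in the fluorouracil libraries and at 1285 and 1177 FPKM in the untreated ones, and the ratio at 0.169 and 0.245 against 0.136 and 0.140.

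Mitochondrial tRNA rows ranged from 0 to 8483 FPKM, and all 22 were listed at 0 in fluorouracil replicate 2. As every short row with 1 FPKM elsewhere was at 0 in that library, these zeros are not given as levels and no mean over the fluorouracil libraries is given. The fit of all 4 libraries takes them as they stand, so its tRNA changes are not used, and the comparison below rests on fluorouracil replicate 1 against the 2 untreated libraries. In those 3 libraries 17 tRNA rows were above 0 and 5 were at 0. Each tRNA is 59 to 75 bases long, shorter than a usual sequencing fragment, so reads of precursors or of neighbouring RNAs cannot be told apart from reads of the mature tRNA.

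TRNS1, the serine tRNA that reads UCN codons, had the highest level of the 22. It measured 8483 FPKM from 8287 counts in fluorouracil replicate 1, against 4487 FPKM from 4314 counts and 6849.9 FPKM from 6944 counts in untreated replicates 1 and 2. It held 56.2% of all mitochondrial tRNA counts in the fluorouracil library and 54.5% and 55.2% in the untreated libraries. TRNS1 lies on the light strand at positions 7446 to 7514, directly after the end of COX1 and opposite in strand to it. The strand setting of the counting is not given in the sources used here, and without strand the reads of a gene and of RNA antisense to it cannot be told apart.

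The next 3 rows were also of the light strand. TRNE, the glutamate tRNA at positions 14674 to 14742 between ND6 and CYTB, had 1602 FPKM in fluorouracil replicate 1, against 689 and 1374 FPKM in the untreated libraries. TRNP, the proline tRNA at the end of the gene-bearing part next to the control region, had 1294 FPKM against 969 and 1115 FPKM. TRNY, the tyrosine tRNA next to COX1, had 1203 FPKM against 755 and 999 FPKM. The fluorouracil library was highest for each of the 3, and its distance from untreated replicate 2 was smaller than the distance between the untreated libraries for TRNE and TRNY. Together with TRNS1 they made up 82.9% of mitochondrial tRNA counts in fluorouracil replicate 1 and 83.2% and 82.8% in untreated replicates 1 and 2.

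By strand, the median of the 8 light-strand rows was 707 FPKM in fluorouracil replicate 1 and 387 and 568 FPKM in the untreated libraries, while that of the 14 heavy-strand rows was 195 FPKM and 79.7 and 146 FPKM. The summed FPKM of light-strand rows was 5.45 times that of heavy-strand rows in fluorouracil replicate 1 and 5.45 and 5.24 times in untreated replicates 1 and 2. This ratio of sums was close in the 3 libraries although the levels differed. TRNS1 alone held 56.0% of tRNA FPKM in fluorouracil replicate 1 and 54.3% and 54.9% in untreated replicates 1 and 2. The median ratio of fluorouracil replicate 1 to untreated replicate 1 was 1.74 for light-strand and 2.11 for heavy-strand rows above 0. To untreated replicate 2 it was 1.22 and 1.23. Light-strand rows were not uniformly high: TRNN and TRNC were at 0, and TRNA had 2 counts in fluorouracil replicate 1 and 4 and 1 in the untreated libraries.

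Among heavy-strand rows the highest in fluorouracil replicate 1 was TRNL1, a leucine tRNA directly after RNR2, at 401 FPKM in fluorouracil replicate 1 against 255 and 281 FPKM in the untreated libraries. TRNK, the lysine tRNA between COX2 and ATP8, followed with 397 FPKM against 173 and 333 FPKM. Leaving aside the 4 highest rows of both strands and the rows under 20 FPKM, 11 rows remained, with TRNQ the only one of the light strand. They spanned 60.2 FPKM (TRNM) to 401 FPKM (TRNL1) in fluorouracil replicate 1, 25.3 FPKM (TRNW) to 255 FPKM (TRNL1) in untreated replicate 1 and 59.1 FPKM (TRNM) to 333 FPKM (TRNK) in untreated replicate 2. Of these, TRNI of isoleucine had 284 FPKM against 155 and 226 FPKM, TRNH of histidine had 259 FPKM against 123 and 200.2 FPKM, TRNG of glycine had 212 FPKM against 85.5 and 165 FPKM, and TRNW of tryptophan had 70.6 FPKM against 25.3 and 65.1 FPKM. TRNR, the arginine tRNA, ranked 12 in fluorouracil replicate 1 and 10 and 7 in untreated replicates 1 and 2. TRNL2, the other leucine tRNA, had 19 counts in fluorouracil replicate 1 and 6 and 16 in the untreated libraries.

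The 5 rows at 0 were TRNF, TRNV, TRNN, TRNC and TRNS2. A count of 0 allows up to 3 counts, which for a row of 69 bases is 3.07 FPKM in fluorouracil replicate 1 and 3.12 and 2.96 FPKM in the untreated libraries. TRNV fills positions 1602 to 1670 between RNR1 and RNR2 without a gap, and TRNF ends at position 647, directly before RNR1. Both were at 0 beside rRNA rows of at least 16493 counts. None of the 5 adjoins a protein-coding gene, a feature looked at after the zeros were seen. Of the 14 tRNA rows whose neighbour on either side is protein-coding, 0 were at 0, against 5 of the 8 rows whose neighbours are tRNA or rRNA genes or the control region. The other 3 of these 8 were TRNQ, with 215 counts in fluorouracil replicate 1 and 85 and 144 in the untreated libraries, TRNA and TRNP. How the counting treated reads that span 2 genes is not given in the sources used here, and its part in this pattern was not tested.

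**Figure D3:**
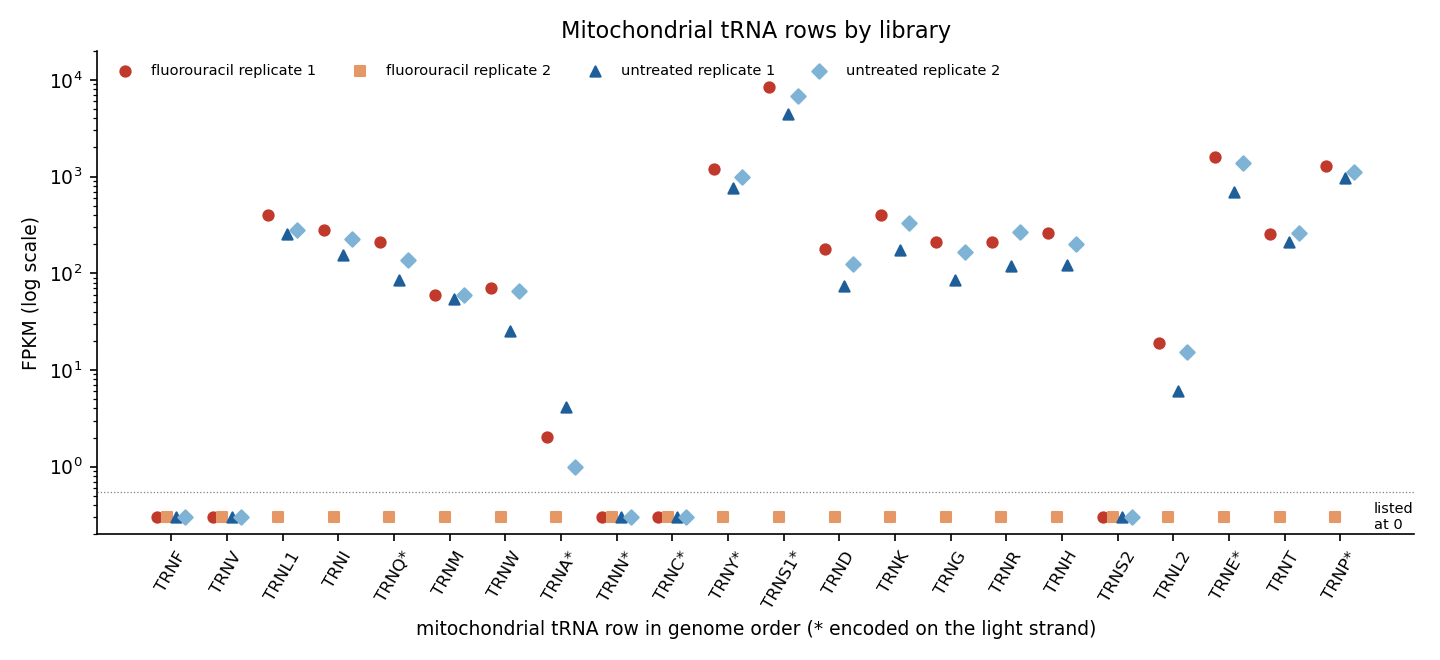
FPKM (y axis, log scale) of the 22 mitochondrial tRNA rows in genome order, 1 point per library; rows listed at 0 are drawn below the dotted line and light-strand rows carry a star. All 22 rows are at 0 in fluorouracil replicate 2 and 5 in every library, and TRNS1, TRNE, TRNP and TRNY are the highest rows in the other 3.

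Fluorouracil replicate 1 was above both untreated libraries in 14 of the 17 tRNA rows, below both in 0 and between them in 3 (TRNA, TRNR and TRNT). Over all tested rows, 39.0% had fluorouracil replicate 1 above both untreated values and 36.4% below both. The untreated libraries themselves differed in the same way: untreated replicate 2 was above untreated replicate 1 in 16 of 17 rows, where 50.4% of all tested rows were. The median ratio of fluorouracil replicate 1 was 1.89 to untreated replicate 1 and 1.23 to untreated replicate 2, while the median ratio of untreated replicate 2 to untreated replicate 1 was 1.61. The tRNA rows differed together between libraries, and the step between the untreated libraries was larger than that from untreated replicate 2 to the fluorouracil library. Without fluorouracil replicate 2, limma called 0 of the 17 rows; the smallest adjusted p was 0.242, for TRNL1, whose log2 change was 0.58.

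TRNQ, the glutamine tRNA, had the largest log2 change of fluorouracil replicate 1 from the untreated mean, 0.97. It measured 211 FPKM in fluorouracil replicate 1, against 84.7 and 136 FPKM in untreated replicates 1 and 2. TRND, the aspartate tRNA, followed among rows over 20 FPKM with 0.90, at 180 FPKM against 73.9 and 126 FPKM. At the other end, TRNR had 210 FPKM against 118 and 267 FPKM, and the threonine tRNA TRNT had 257 FPKM against 213 and 260 FPKM. For TRNM, the methionine tRNA, the values lay close together, at 60.2 FPKM in fluorouracil replicate 1 and 53.8 and 59.1 FPKM in the untreated libraries.

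Other short RNAs did not show this order, but many of their rows had only a few FPKM, where counting error weighs more. Among 125 snoRNA rows of up to 150 bases that reached 1 FPKM in these 3 libraries, fluorouracil replicate 1 was above both untreated libraries in 34, and its median ratios were 0.875 to untreated replicate 1 and 0.951 to untreated replicate 2. Among 71 miRNA rows it was above both in 22, with median ratios of 0.984 and 1.04. The ratio of untreated replicate 2 to untreated replicate 1 had a median of 0.948 for snoRNA rows and 1.09 for miRNA rows. For the 16 mitochondrial tRNA rows under the same minimum the medians were 2.00 and 1.22 for fluorouracil replicate 1 and 1.62 between the untreated libraries.

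The tRNA and rRNA rows of the mitochondrial genome did not keep a fixed proportion. Summed tRNA FPKM was 1.03 times summed rRNA FPKM in fluorouracil replicate 1 and 0.768 and 1.30 times in untreated replicates 1 and 2, so the fluorouracil library lay between the untreated ones. In counts the tRNA rows made up 0.104% of fluorouracil replicate 1 (Wilson 95% interval 0.102 to 0.106%), 0.0568% (0.0556 to 0.0581%) of untreated replicate 1 and 0.0857% (0.0842 to 0.0872%) of untreated replicate 2. From untreated replicate 1 to untreated replicate 2 the rRNA share was lower and the tRNA share higher.

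**Figure D4:**
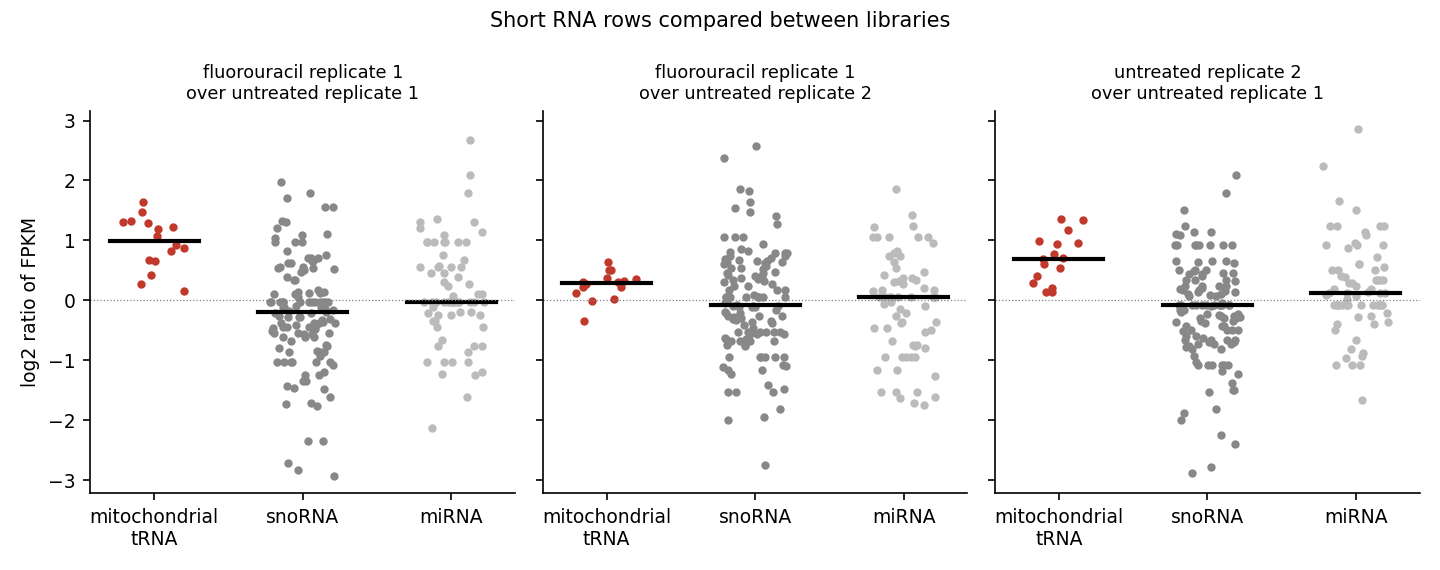
Log2 ratio of FPKM between libraries (y axis) for mitochondrial tRNA, snoRNA and miRNA rows that reached 1 FPKM in the 3 libraries; each point is 1 row and the black line the median, with a fixed random horizontal spread. Mitochondrial tRNA rows lie above 0 in both left and right panels, with median ratios of 2.00 and 1.62, while the snoRNA and miRNA medians stay between 0.875 and 1.09 in all 3 panels.

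Nuclear genes that make and maintain mitochondrial RNA were compared with the same fit, in lists of 17 genes for transcription and DNA maintenance, 22 for RNA processing and modification and 21 for RNA stability and decay. None of these 60 genes passed the test (limma adjusted p from 0.671), 0 had an unadjusted p below 0.05, and over all tested rows 400 of 12462 did. In the stability and decay list, 11 of 21 genes had lower values in both fluorouracil libraries than in both untreated ones and 4 had higher values; over all tested rows 24.4% had higher and 19.3% lower values. The list had a median of -0.08 on the log2 scale in fluorouracil replicate 1 and of -0.35 in replicate 2, or -0.10 and -0.17 once GC content and length were taken out. In the transcription list 3 genes (17.6%) had higher and 4 (23.5%) lower values, and in the processing list 1 (4.55%) had higher and 6 (27.3%) lower values. The shares with lower values in the transcription and processing lists were nearer the 19.3% of all rows. In the stability and decay list that share was 52.4%. The processing list had a smaller share with higher values than the 24.4% of all rows.

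TFAM, which packages mitochondrial DNA and activates its promoters, had 27.2 and 11.2 FPKM in fluorouracil replicates 1 and 2 and 31.0 and 28.6 FPKM in untreated replicates 1 and 2. POLG2, the accessory subunit of the mitochondrial DNA polymerase, had 4.84 and 3.47 FPKM against 6.02 and 7.98 FPKM. MTERFD3, a member of the mitochondrial transcription termination factor family now named MTERF2, was on the higher side with 6.13 and 4.85 FPKM against 3.57 and 2.97 FPKM. These 3 genes were picked among genes whose groups did not overlap, so their lack of overlap follows from the choice and is not a result. SSBP1, picked from this list in the same way, was also on the higher side, with its larger value in fluorouracil replicate 2. For TFAM the value of fluorouracil replicate 1 was close to the untreated ones, and most of the difference lay in fluorouracil replicate 2.

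TRNT1, the enzyme that adds the CCA end to tRNAs, had 7.65 and 3.15 FPKM in the fluorouracil libraries and 10.6 and 11.0 FPKM in the untreated libraries, a log2 change of -1.12 (SE 0.51). TRMT5, a tRNA methyltransferase, had 3.10 and 1.55 FPKM against 5.07 and 4.14 FPKM, a log2 change of -1.03 (SE 0.47). Both had the limma adjusted p of 0.671 and had changes of -0.90 and -0.73 once GC content and length were taken out. RPUSD3, the 1 gene of the processing list with higher values, had 10.0 and 17.7 FPKM against 8.07 and 7.32 FPKM. Its log2 change was 0.78 (SE 0.38), with the same adjusted p, and 0.35 after that step. MTPAP, the mitochondrial poly(A) polymerase, had 5.47 and 2.90 FPKM against 6.51 and 7.41 FPKM. ERAL1, a chaperone of the RNR1 rRNA, had 26.8 and 48.2 FPKM against 23.8 and 22.9 FPKM, and its log2 change of 0.62 was 0.03 after that step.

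Of the nuclear genes for mitoribosomal proteins and for subunits of the respiratory chain complexes, 0 were called in the fit of all 4 libraries. Of 76 mitoribosomal protein genes, 15 (19.7%) had higher and 11 (14.5%) lower values in both fluorouracil libraries, near the 24.4% and 19.3% of all tested rows, with medians of -0.06 in fluorouracil replicate 1 and 0.68 in replicate 2. Of 78 nuclear subunit genes of complexes I to V, 33 (42.3%) had higher and 4 (5.13%) lower values, against the same 24.4% and 19.3%, with medians of 0.03 in replicate 1 and 1.20 in replicate 2. Once GC content and length were taken out, these medians were -0.11 and -0.02 for the mitoribosomal genes and -0.03 and 0.42 for the subunit genes (76 of the 78 with a GC value). Over all tested rows the medians were 0.0076 and 0.19 as deposited and -0.03 and -0.10 after this step. NDUFB8, a subunit of complex I, had 75.8 and 257 FPKM in the fluorouracil libraries and 60.5 and 66.1 FPKM in the untreated ones, and NDUFS1, which carries iron-sulfur clusters of complex I, had 38.9 and 25.6 FPKM against 41.6 and 45.8 FPKM. The complex V subunit ATP5J2 had 112 and 1464 FPKM against 98.9 and 97.9 FPKM. MRPL41 of the large mitoribosomal subunit had 53.0 and 197 FPKM against 46.7 and 38.1 FPKM, and MRPS30 had 31.4 and 24.8 FPKM against 41.3 and 40.0 FPKM. COX5B, a subunit of complex IV, shows the pattern, with 184 and 610.3 FPKM in fluorouracil replicates 1 and 2 against 170 and 152 FPKM in untreated replicates 1 and 2. The log2 changes in fluorouracil replicate 2 were smaller once GC content and length were taken out. They went from 2.02 to 0.53 for NDUFB8, -0.76 to -0.03 for NDUFS1 and 3.89 to 2.12 for ATP5J2. For MRPL41 they went from 2.22 to 0.27 and for COX5B from 1.93 to 0.37. That of MRPS30 changed sign, from -0.71 to 0.22. In complex I 21 of 37 genes (56.8%) and in complex IV 6 of 11 (54.5%) had higher values, with medians of 1.42 and 1.54 in replicate 2 and of 0.07 and 0.06 in replicate 1. Outside the rule for named genes, and chosen after its values were seen, the complex V subunit ATP5E had 0.483 and 1676 FPKM in fluorouracil replicates 1 and 2, against 0.654 and 0.155 FPKM in untreated replicates 1 and 2. MRPS24, chosen in the same way, had 221 FPKM in fluorouracil replicate 2 and was listed at 0 in the other 3 libraries.

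**Figure D5:**
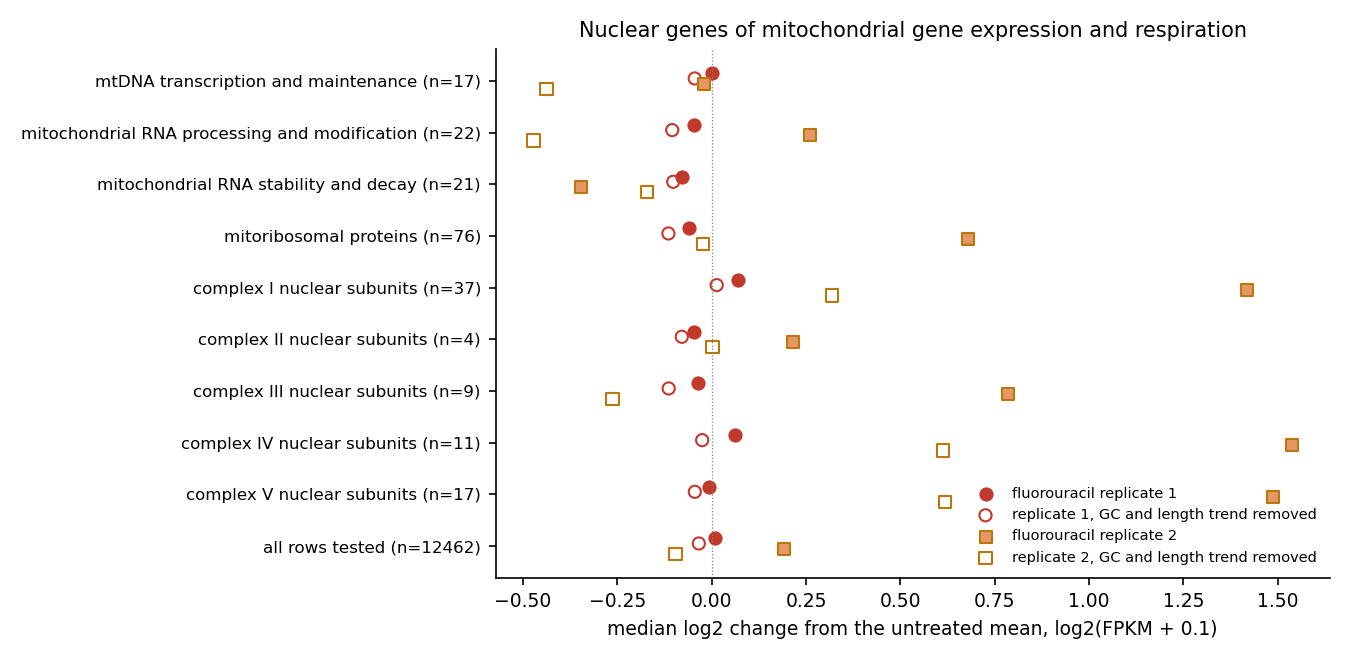
Median log2 change from the untreated mean (x axis) of nuclear gene lists in fluorouracil replicates 1 and 2, as deposited (filled) and after each library's GC and length trend was taken out (open), with the number of genes tested. The medians of replicate 1 stay between -0.08 and 0.07 as deposited, while those of replicate 2 reach 1.54 for complex IV and -0.35 for RNA stability and decay.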

How the data were processed

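The authors deposited 1 table of 33117 rows, with FPKM values per gene for 4 HT29 libraries, 2 treated with fluorouracil and 2 untreated. Per the submitters' processing notes, TopHat2 2.1.0 and Cufflinks 2.2.1 were used, with hg38 and mm10 named without roles. For the annotation and the strand setting, the sources used here give nothing. Left out were 28 rows whose symbol had become a date-like number. The members and gene lists were chosen with earlier results of these data known.

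Values were transformed to log2(FPKM + 0.1), and rows with a mean of at least 1 FPKM were tested (12462, among them 19 of the 24 mitochondrial rows) with limma 3.58.1 in R 4.3.3 (trended prior variance, two-sided, 2 residual degrees of freedom, Benjamini-Hochberg threshold 0.05). The fit was checked on simulated data with the spread of the untreated libraries. That setting does not cover the ways in which fluorouracil replicate 2 stood apart. All mitochondrial rows were described; of each nuclear list, the rule took the 2 genes with the smallest p in each direction among those with groups that did not overlap, of which the text gives examples. Counts were recovered as FPKM times RefSeq gene length (GRCh38.p14) times a library total. Mitochondrial positions were the same in RefSeq and GENCODE 29 for 37 of 37 genes. tRNA sequences came from GENCODE 29 transcripts, and the anticodon was placed by its triplet between a T and a purine in a paired stem. The trend in GC content and length was taken out by loess (span 0.3) fitted on 10539 protein-coding rows.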

Additional observations from a re-analysis of the deposited data

How the results depend on the processing

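No mitochondrial row was called with another pseudocount, filter or scaling. Over all rows, the count called moved from 0 to 81 without a filter on low values and to 339 with a replicate block, and this blocked fit called 16 tRNA rows, whose values differ through the zeros of fluorouracil replicate 2, and 3 genes of the nuclear lists, ATP5E, MRPS24 and NDUFS7, each far higher in fluorouracil replicate 2 than elsewhere. The replicate numbers pair no samples by the labels, and the differences between replicates correlated at -0.05 across rows. Leaving out 1 library gave 0 to 8337 rows called and 0 to 18 mitochondrial rows, with both highest counts without fluorouracil replicate 1; the lone library was then assumed to vary like the untreated pair. Without fluorouracil replicate 2, 18 rows were called, none of them mitochondrial.

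The median log2 change of the rRNA rows, 0.70, was 0.24 after quantile normalization (which sets RNR2, the top row of every library, to no change), 0.26 after scaling to the FPKM sum, 0.58 after median ratio scaling and, in a choice made after seeing the data, 0.39 with the GC and length trend removed; scaling to the sum turned RNR2 to -0.023. The RNR1 to RNR2 ratio of untreated cells averaged 0.138, and 0.153 with that trend removed. As a share of the FPKM sum, the rRNA rows held 3.33% in fluorouracil replicate 1 and 2.37% in the untreated mean. Of recovered counts they held 2.16% and 1.51%, since FPKM divides by length. In fluorouracil replicate 2 the share of the FPKM sum was 1.86%, below the 2.48% and 2.25% of untreated replicates 1 and 2. The fluorouracil libraries thus lay on opposite sides of the untreated ones. Without tRNA and short RNA rows the share was 3.50% and 1.86% in fluorouracil replicates 1 and 2. In untreated replicates 1 and 2 it was then 2.56% and 2.35%. The tRNA rows held 3.44% of FPKM in fluorouracil replicate 1 and 2.41% in the untreated mean, but 0.104% and 0.0712% of counts.

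The fit of all 4 libraries read the zeros of fluorouracil replicate 2 as levels. Over the fits that left out 1 library, the log2 change therefore ranged from -9.92 to 0.90 for TRND, -13.25 to 0.72 for TRNE, -10.22 to 0.83 for TRNG, -10.62 to 0.72 for TRNH, -10.87 to 0.60 for TRNI, -11.23 to 0.72 for TRNK, -11.39 to 0.58 for TRNL1, -6.61 to 0.96 for TRNL2, -9.14 to 0.10 for TRNM, -13.34 to 0.32 for TRNP, -10.07 to 0.97 for TRNQ, -10.80 to 0.24 for TRNR, -15.76 to 0.61 for TRNS1, -11.20 to 0.13 for TRNT, -8.67 to 0.80 for TRNW and -13.08 to 0.47 for TRNY. The low ends are set by the pseudocount over a library at 0 and measure no change: the tRNA median in the fit of all 4 libraries, -5.14, was -3.48 with a pseudocount of 1 and -6.80 with 0.01. The highest value of each came from the fit without fluorouracil replicate 2.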

Other observations

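The 5 tRNA rows at 0 lay toward the upper part of the GC range of the 17 rows above 0. The rows at 0 were 59 to 73 bases long with 40.8 to 45.8% GC, and the others were 65 to 75 bases long with 23.1 to 49.3% GC. Of these 17, 12 had a lower GC content than every row at 0. TRNS1, the row with the highest level, also had the highest GC content, 49.3%, and TRNQ had 48.6%. The part of GC content in the zeros was not tested. Among all rows of the table, RNR1 ranked 15 by FPKM in fluorouracil replicate 1 and 38 in replicate 2, against 44 and 47 in untreated replicates 1 and 2.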
